A study of Homo sapiens with 6 samples.

Results

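The genes described here encode the enzymes that clear reactive carbonyls and electrophiles: the aldehyde dehydrogenases (ALDH), the aldo-keto reductases (AKR1 and AKR7 families), the glutathione S-transferases of the alpha, kappa, mu, omega, pi, theta and zeta classes (GST), and the microsomal glutathione transferases MGST1 to MGST3. The rule takes every gene whose symbol begins as those of these families do, and found 54 of the 20289 genes in the table: 19 ALDH, 14 AKR, 18 GST and 3 MGST genes. RNA was measured by sequencing in 6 libraries, 3 labelled Vector and 3 labelled LINC00665. The labels describe all 6 as T24, an established human bladder cancer cell line, transfected by lipofection with pcDNA3.1, either empty (genotype control) or carrying the long non-coding RNA LINC00665 (genotype LINC00665 overexpression). The stated interest is how LINC00665 acts in lymph node metastasis of bladder cancer, and the libraries are said to come from 3 independent experiments.

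Aldehyde dehydrogenases oxidise aldehydes to acids with NAD or NADP, and 3 of them, ALDH1A1, ALDH1A2 and ALDH1A3, make retinoic acid, the ligand of the retinoic acid receptors. Aldo-keto reductases work in the opposite direction and reduce aldehydes and ketones, including glucose, steroids and prostaglandins, with NADPH. Glutathione transferases couple electrophiles to glutathione, after which the conjugates leave the cell through ABC transporters. Many of these genes are known targets of the transcription factor NRF2, and ALDH activity is widely used as a marker in studies of bladder and other carcinomas.

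The libraries held 17289788 to 22725687 expected counts each. A sample identity check found 3 of the 6 libraries at odds with their labelled cell line, so groups are called by their labels throughout and each direction is that of the label LINC00665 relative to the label Vector. Of 20 urothelial and epithelial markers, 17 reached 1 CPM in all 3 libraries labelled LINC00665 and 4 did so in those labelled Vector. CPM here is the expected count per 1000000 after scaling by the trimmed mean of M-values. The summed level of these markers was 7879 to 9604 CPM under the LINC00665 label and 22.0 to 28.0 CPM under the Vector label, where GRHL2, GRHL3, KRT13, KRT14 and UPK3A had 0 counts. Of 18 kidney tubule markers, 5 reached 1 CPM in all libraries under the Vector label and 3 under the LINC00665 label, with sums of 382 to 545 and of 85.1 to 100.1 CPM. The tubule transport genes SLC22A6, UMOD and SLC12A1 were at 0 in all 6 libraries, while the transcription factor PAX8 stood at 262 ± 63.6 CPM (SD, n = 3) under the Vector label and at 14.7 ± 0.695 CPM under the other. Under the Vector and LINC00665 labels, 2 and 2 of 12 liver markers reached 1 CPM in all libraries (sums 8.32 to 15.2 and 231 to 304 CPM), 1 and 6 of 10 fibroblast markers (2.07 to 4.10 and 244 to 273 CPM), 0 and 4 of 9 endothelial markers (0.746 to 2.48 and 16.3 to 16.7 CPM), and 0 and 1 of 11 leukocyte markers (0.280 to 0.833 and 5.63 to 6.94 CPM). Most of the liver sum under the LINC00665 label came from SERPINA1, at 5.28 ± 3.19 and 261 ± 35.9 CPM under the Vector and LINC00665 labels. TF of that list was at 6.09 ± 0.401 and 5.65 ± 0.771 CPM. The liver markers TTR, FGA and FGG, the endothelial marker EMCN, and CD3D, MS4A1, LYZ, FCGR3A and NKG7 of the leukocyte list were at 0 in every library. The sums of all 6 marker lists were apart between the labels, that is, between the same libraries as the plasmids, so cell line and plasmid cannot be told apart in any value below, and the part of other cell types in the results was not tested. In bulk RNA, fewer cells of a type and less RNA per cell also cannot be told apart. The level of LINC00665 was not analysed here.

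Promoter windows of 4 members come first, because 3 of them (GSTP1, AKR1B1 and ALDH1A3) carried most of the RNA of their families under the LINC00665 label, and ALDH1A1 had the lowest fitted fold change. Each is the 250 bases before a RefSeq transcription start in GRCh38.p14, read 5′ to 3′ on the gene's strand, with matches to the motifs named next in capitals.
GSTP1 (chr11:67583562-67583811, plus strand): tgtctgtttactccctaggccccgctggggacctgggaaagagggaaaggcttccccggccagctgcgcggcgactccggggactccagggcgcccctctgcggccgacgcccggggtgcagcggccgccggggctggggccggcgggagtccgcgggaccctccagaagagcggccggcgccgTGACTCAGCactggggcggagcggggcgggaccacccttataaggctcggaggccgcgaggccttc
AKR1B1 (chr7:134459101-134459350, minus strand): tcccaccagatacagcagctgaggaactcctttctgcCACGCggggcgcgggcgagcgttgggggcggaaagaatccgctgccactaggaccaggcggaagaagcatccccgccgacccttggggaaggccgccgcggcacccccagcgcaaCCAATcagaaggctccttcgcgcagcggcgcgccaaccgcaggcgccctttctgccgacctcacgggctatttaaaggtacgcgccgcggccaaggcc
ALDH1A3 (chr15:100879581-100879830, plus strand): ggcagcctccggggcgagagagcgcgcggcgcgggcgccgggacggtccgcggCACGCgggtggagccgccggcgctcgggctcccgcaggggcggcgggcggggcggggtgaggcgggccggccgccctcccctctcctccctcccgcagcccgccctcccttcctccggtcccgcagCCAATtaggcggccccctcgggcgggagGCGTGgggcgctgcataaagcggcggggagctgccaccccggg
ALDH1A1 (chr9:72953054-72953303, minus strand): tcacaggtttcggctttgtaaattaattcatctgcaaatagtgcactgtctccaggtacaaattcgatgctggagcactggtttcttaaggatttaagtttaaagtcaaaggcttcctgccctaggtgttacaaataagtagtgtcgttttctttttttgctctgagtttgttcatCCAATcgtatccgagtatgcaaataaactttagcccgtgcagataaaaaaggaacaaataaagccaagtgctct

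The motifs were searched on both strands of 34943 such windows, and 42 of the 54 genes had a window. Some of these genes had several windows, and a gene was counted if any of them held the motif. The shares of all windows are per window, so they are not like for like with the counts of genes. The antioxidant response element core TGACNNNGC, the kind of site NRF2 is known to bind, was in 10.9% of all windows and in those of 6 of the 42 genes (AKR7A2, GSTA4, GSTM1, GSTM5, GSTO1 and GSTP1). An AP-1 site (TGACTCA or TGAGTCA) was in 4.22% of all windows and only in that of GSTP1 among the 42, where it overlaps the antioxidant core at positions -66 to -58. GCGTG, the core of the site bound by the aryl hydrocarbon receptor, was in 32.2% of windows and in those of 14 of the 42 genes, among them AKR1B1 and ALDH1A3. CCAAT was in 32.0% of windows and in 18 of the 42, among them AKR1B1, ALDH1A1 and ALDH1A3, and TATAAA in 10.75% and in 7 of the 42. These matches describe letters in the windows and were not tested for any effect.

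Among the 54 genes, 9 had 0 counts in all 6 libraries and 10 more had too few counts to be tested. Of the 35 tested, 25 passed an adjusted p of 0.05, 16 higher and 9 lower under the LINC00665 label. Over all genes tested, 63.5% passed, 34.2% higher and 29.3% lower. For 8 of the 35 only the libraries labelled LINC00665 reached the count minimum: AKR1C1, AKR1C2, AKR1C3, ALDH1A2, ALDH1L1, ALDH3A1, GSTT2 and GSTT2B. For 2, ALDH1A1 and ALDH1L2, only those labelled Vector did. This fixes the direction of these genes, so their adjusted p-values below are no separate evidence of it. The other 25 reached the minimum under both labels, and of these 8 rose, 7 fell and 10 did not pass. This is 60% called, against 58.8% of all genes of that kind (26.9% higher and 31.9% lower). The share called was thus near that of the whole table. The median log2 fold change (log2FC) of these 25 genes was -0.22, beside -0.09 for all genes of that kind. The groups did not overlap for 25 of the 35, against 70.2% of all tested genes. For each of those 25 the exact two-sided permutation p of the CPM values was 0.1, the lowest possible with 3 libraries per label.

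**Figure D1:**
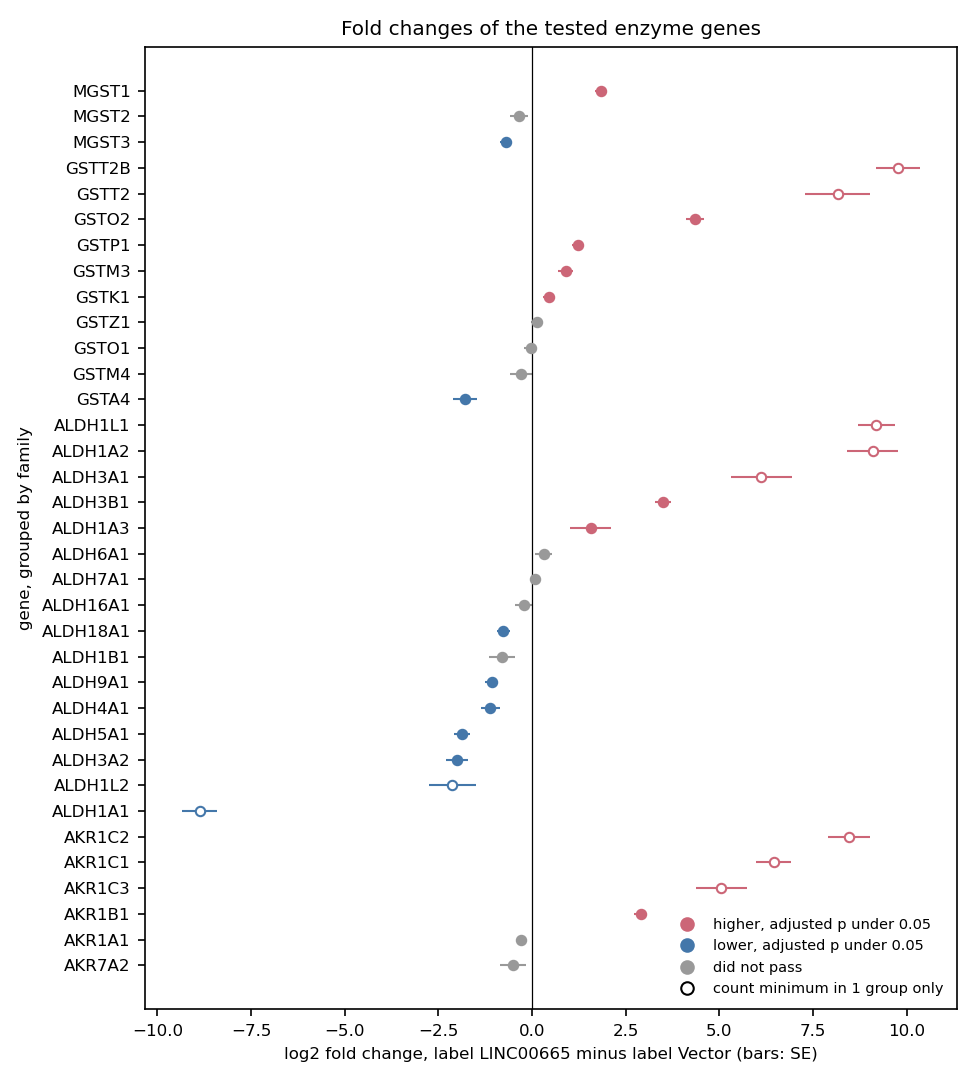
Log2FC (label LINC00665 minus label Vector, x axis) of the 35 tested genes (y axis, grouped by family), with standard errors as bars. Filled points are the 25 genes that reached the count minimum under both labels and open points the 10 that reached it under 1 label only. GSTT2B and ALDH1L1 on the right and ALDH1A1 on the left lie farthest from 0, and the fitted value of a gene at 0 counts under 1 label depends on the prior count.

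The retinoic acid enzymes of the ALDH1A group differed in which member was present. ALDH1A3, the member with the most RNA in the family, stood at 758, 127 and 697 CPM in the libraries labelled Vector 1 to 3 and at 1687, 1645 and 1347 CPM in those labelled LINC00665 1 to 3. All 3 LINC00665 values lay above the Vector values, and Vector 2 lay far below the other libraries of its label. The log2FC was 1.56 (SE 0.55, adjusted p = 0.034). Without Vector 2 it was 1.10 (adjusted p = 0.00049), and it no longer passed without LINC00665 1, 2 or 3 (adjusted p = 0.073, 0.10 and 0.063) or with total-count scaling (1.39, adjusted p = 0.051).

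ALDH1A1, the cytosolic retinaldehyde dehydrogenase known as a stem cell marker, showed the reverse. It was at 34.3, 25.9 and 43.9 CPM under the Vector label and at 0.0930, 0 and 0.108 CPM, or 4 counts in all, under the LINC00665 label. The groups were far apart, with a log2FC of -8.87 (SE 0.46, adjusted p = 1.5e-06). ALDH1A2, which makes retinoic acid in the embryo and in mesothelium, had 0 counts in every library labelled Vector and stood at 3.26, 3.10 and 4.04 CPM in those labelled LINC00665, at least 67.6-fold higher with the Vector label set at 3 counts over the group. The coding sequences of the 3 genes are 65.8 to 67.5% identical and share no stretch of 50 bases, so their reads are not readily exchanged. ALDH1A1 lies on chromosome 9 at 72900662 to 73080442, ALDH1A2 on chromosome 15 at 57953424 to 58497866 and ALDH1A3 on chromosome 15 at 100877714 to 100916626 (GRCh38).

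The folate enzymes of the family also moved in opposite directions. ALDH1L1, the cytosolic formyltetrahydrofolate dehydrogenase, had 1 count in all under the Vector label and stood at 15.4, 12.98 and 12.7 CPM under the LINC00665 label (ratio 810, 95% counting interval 145 to 32015). Its mitochondrial counterpart ALDH1L2 fell from 1.06 ± 0.386 to 0.241 ± 0.221 CPM (log2FC -2.12, SE 0.64, adjusted p = 0.018). That call rested on 62 and 14 counts and was lost without Vector 1 (adjusted p = 0.051), LINC00665 1 (0.068) or LINC00665 2 (0.051), and the log2FC was -3.07 without LINC00665 3.

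Among the enzymes of lipid aldehydes, ALDH3A2, the fatty aldehyde dehydrogenase of the endoplasmic reticulum, was the second most abundant ALDH under the Vector label by mean FPKM, a unit that takes gene length into account. Its CPM values were 289, 360 and 161 under the Vector label and 81.3, 59.7 and 60.5 under the LINC00665 label. Each Vector value exceeded all LINC00665 values, with a log2FC of -2.01 (SE 0.30, adjusted p = 0.00049). ALDH3B1, which oxidises lipid-derived aldehydes at membranes, was at 1.40, 1.499 and 1.14 CPM under the Vector label and at 14.8, 15.03 and 16.3 CPM under the LINC00665 label. It rose (log2FC 3.51, SE 0.21, adjusted p = 3.3e-06), with little spread within either label. ALDH3A1, abundant in the cornea and inducible through the aryl hydrocarbon receptor, had 2 counts in all under the Vector label and 4.37, 2.31 and 1.67 CPM under the other, a ratio of 84.0 (95% counting interval 22.9 to 700). ALDH3A1 and ALDH3A2 lie on chromosome 17 between 19648136 and 19748943, on opposite strands and 60385 bases apart.

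The mitochondrial and amino acid enzymes were lower or did not pass. ALDH5A1, the succinic semialdehyde dehydrogenase of GABA breakdown, was at 35.8, 29.5 and 24.5 CPM under the Vector label and at 9.26, 6.67 and 8.67 CPM under the LINC00665 label (log2FC -1.87, SE 0.21, adjusted p = 0.00011). ALDH4A1, which acts in proline breakdown, was at 50.02, 62.8 and 31.3 CPM against 22.7, 18.9 and 24.9 CPM (log2FC -1.11, SE 0.26, adjusted p = 0.0054). ALDH9A1, an enzyme of carnitine synthesis, was at 117, 126 and 167 CPM against 59.1, 67.6 and 68.9 CPM (log2FC -1.07, SE 0.17, adjusted p = 0.00083). None of the 3 overlapped between labels. ALDH18A1, a synthase of the proline pathway despite its name, fell from 170 ± 27.9 to 100.3 ± 10.7 CPM (log2FC -0.76, SE 0.17, adjusted p = 0.0044). ALDH7A1 (lysine breakdown), ALDH6A1 (valine breakdown) and ALDH16A1 did not pass, with log2FC values from -0.22 to 0.31. ALDH1B1, a mitochondrial aldehyde dehydrogenase, was at 81.4, 33.2 and 97.1 CPM against 48.8, 35.7 and 36.7 CPM, and Vector 2 lay below all the others. Its log2FC was -0.80 (adjusted p = 0.079) and passed without Vector 2 (-1.15, adjusted p = 0.00074) and with total-count scaling (-0.97, adjusted p = 0.043). ALDH2, the main enzyme of acetaldehyde oxidation, was too low to test, at 4 counts in all under the Vector label and 41.2 under the other. So were ALDH3B2, with 2 and 23 counts (ratio 11.4, 95% counting interval 2.83 to 100.1), and ALDH8A1, with 10 and 21 counts.

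Aldose reductase, AKR1B1, carried most of the change among the aldo-keto reductases. AKR1B1, which reduces glucose to sorbitol, was at 208, 177 and 154 CPM under the Vector label and at 1461, 1399 and 1172 CPM under the LINC00665 label. The lowest LINC00665 value was thus several times the highest Vector value, and the log2FC was 2.90 (SE 0.17, adjusted p = 3.1e-06). Its relatives on the same arm of chromosome 7 stayed low: AKR1B10 had 3 and 49 counts in all under the Vector and LINC00665 labels, a ratio of 16.2 (95% counting interval 5.24 to 81.5), and AKR1B15 had 0 and 20 counts, at least 6.63-fold higher. Neither was tested.

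The hydroxysteroid dehydrogenases AKR1C1, AKR1C2 and AKR1C3 lie side by side on chromosome 10 between 4963253 and 5107686. AKR1C3, which also makes prostaglandin F and acts on androgens, was at 0.140, 2.17 and 0.362 CPM under the Vector label and at 31.4, 29.7 and 25.1 CPM under the LINC00665 label. Vector 2 was the highest of its label but still far below the LINC00665 libraries. The log2FC was 5.06 (SE 0.68, adjusted p = 3e-04), and 6.83 without Vector 2. AKR1C1, which inactivates progesterone, was at 0.153, 0.389 and 0.103 CPM against 18.3, 24.3 and 12.8 CPM (log2FC 6.45, SE 0.46, adjusted p = 7.8e-06), and at 7.16 on the log2 scale without Vector 2. AKR1C2, which acts on dihydrotestosterone, was at 0.0331, 0 and 0.0517 CPM, or 1.71 expected counts in all, against 15.6, 18.2 and 8.93 CPM. The ratio was 492 (95% counting interval 116 to 3484). In all 3 genes LINC00665 3 was the lowest library of its label. Their neighbours AKR1C4, AKR1C8P and AKR1E2 had 0 counts in all 6 libraries.

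The split of reads between AKR1C1 and AKR1C2 is uncertain, as the first 120 coding bases show. Capitals mark bases that are unlike AKR1C1 at the same place, 4 in AKR1C2 and 12 in AKR1C3.
AKR1C1: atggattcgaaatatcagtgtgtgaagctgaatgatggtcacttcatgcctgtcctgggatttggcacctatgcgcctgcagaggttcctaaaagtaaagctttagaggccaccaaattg
AKR1C2: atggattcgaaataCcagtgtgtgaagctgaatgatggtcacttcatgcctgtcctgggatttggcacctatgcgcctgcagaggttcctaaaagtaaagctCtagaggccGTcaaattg
AKR1C3: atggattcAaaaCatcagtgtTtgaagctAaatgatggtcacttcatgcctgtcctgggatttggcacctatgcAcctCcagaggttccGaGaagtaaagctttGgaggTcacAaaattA

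Over the whole coding sequence AKR1C1 was 98.05% identical to AKR1C2 and 91.9% to AKR1C3 (longest open reading frames of GENCODE v29 transcripts). Of the 50-base stretches of AKR1C1, 51.8% occurred in AKR1C2 and 14.6% in AKR1C3. The expected counts of AKR1C1 and AKR1C2 were not whole in most libraries. With the counts of the pair summed the log2FC was 7.06 (adjusted p = 2.8e-06). Neither gene reached the count minimum under the Vector label.

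The other aldo-keto reductases differed less. AKR1A1, the general aldehyde reductase, was at 132 ± 14.7 and 109 ± 8.07 CPM (log2FC -0.28, adjusted p = 0.12), and it passed with total-count scaling (-0.44, adjusted p = 0.022) and on FPKM (-0.48, adjusted p = 0.0083). AKR7A2, which reduces succinic semialdehyde and aflatoxin aldehyde, was at 49.98, 53.1 and 19.4 CPM against 28.7, 26.5 and 30.7 CPM. Vector 3 lay below the LINC00665 libraries and Vector 1 and 2 above them. Its log2FC was -0.51 (adjusted p = 0.22), and -0.85 without Vector 3 (adjusted p = 0.00099). AKR7A3, AKR7L and the bile acid enzyme AKR1D1 had at most 18 counts in all under either label and were not tested.

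Among the glutathione transferases, GSTP1 was the most abundant under both labels. This pi-class enzyme, which is abundant in urothelium and many carcinomas, was at 297, 308 and 309 CPM under the Vector label and at 676, 824 and 633 CPM under the LINC00665 label. The Vector values were close together and all LINC00665 values lay well above them (log2FC 1.22, SE 0.15, adjusted p = 0.00015). MGST1, a membrane-bound transferase and peroxidase, was at 21.0, 22.0 and 17.6 CPM against 70.7, 74.8 and 70.0 CPM (log2FC 1.83, SE 0.15, adjusted p = 1.8e-05). It did not overlap between labels either. MGST3, by contrast, fell from 60.4 ± 1.38 to 37.2 ± 6.25 CPM (log2FC -0.70, SE 0.16, adjusted p = 0.005), and MGST2, which can make leukotriene C4, did not pass (log2FC -0.35, adjusted p = 0.25).

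The omega-class pair, which reduces dehydroascorbate, differed between its members. GSTO2 was at 0.653, 0.555 and 0.673 CPM under the Vector label and at 13.7, 11.5 and 13.9 CPM under the LINC00665 label, with a log2FC of 4.36 (SE 0.24, adjusted p = 1.9e-06). GSTO1, which lies 1413 bases before it on the same strand of chromosome 10, was at 97.5 ± 9.68 and 94.9 ± 17.2 CPM (log2FC -0.04, SE 0.17, adjusted p = 0.86). The difference between the 2 fold changes was not tested. Another close pair, MGST3 and ALDH9A1, is separated by 419 bases on chromosome 1 between 165630861 and 165698863, with the 2 genes on opposite strands and their ends facing. Both fell, and since no source used here gives the use of strand, reads past the end of either gene cannot be told apart from the other.

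The theta-class genes GSTT2 and GSTT2B had 0 counts in every library labelled Vector. Under the LINC00665 label GSTT2B was at 5.51, 5.36 and 5.89 CPM, at least 109-fold higher, and GSTT2, annotated as a polymorphic pseudogene, was at 2.21, 1.21 and 1.97 CPM, at least 35.6-fold higher. Both lie on chromosome 22 between 23957414 and 23983915, and their coding sequences are 99.5% identical, so the split between them is uncertain. GSTM1 showed the opposite at a very low level, with 28.6 expected counts in all under the Vector label and 1 under the other, a ratio of 28.7 (95% counting interval 4.83 to 1191), and was not tested. GSTM2, at 24.9 and 6.70 expected counts in all, was not tested either. The expected counts of GSTM1, GSTM2 and GSTM4 were not whole in the libraries labelled Vector. Of the 50-base stretches of the GSTM1 coding sequence, 14.6% occurred in GSTM4 and 6.62% in GSTM2. The split of reads among these genes is thus uncertain too, and the counting interval of GSTM1 does not cover it.

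The other mu-class gene above the count minimum that passed was GSTM3, which rose from 14.6 ± 3.43 to 27.2 ± 2.33 CPM (log2FC 0.90, SE 0.20, adjusted p = 0.0043). GSTM4 was at 17.5, 18.0 and 8.06 CPM against 12.0, 12.7 and 11.2 CPM, with Vector 3 again below the other libraries of its label. It did not pass (log2FC -0.28, adjusted p = 0.43), except without Vector 3 (-0.57, adjusted p = 0.015). GSTA4, which conjugates the lipid aldehyde hydroxynonenal, fell from 4.76 ± 1.11 to 1.37 ± 0.434 CPM (log2FC -1.79, SE 0.33, adjusted p = 0.0015). The classical alpha-class genes GSTA1, GSTA2, GSTA3 and GSTA5, and also GSTM5 and GSTT4, had 0 counts in all libraries, which allows up to 3 counts per label. GSTK1, of mitochondria and peroxisomes, rose from 74.3 ± 7.11 to 101.3 ± 9.81 CPM (log2FC 0.45, SE 0.15, adjusted p = 0.026). The call was lost without Vector 1 (adjusted p = 0.055), LINC00665 1 (0.11) or LINC00665 2 (0.076), with total-count scaling (0.11) and on FPKM (0.068). GSTZ1, of tyrosine breakdown, was at 15.5 ± 1.78 and 17.1 ± 0.675 CPM and did not pass (adjusted p = 0.47).

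**Figure D2:**
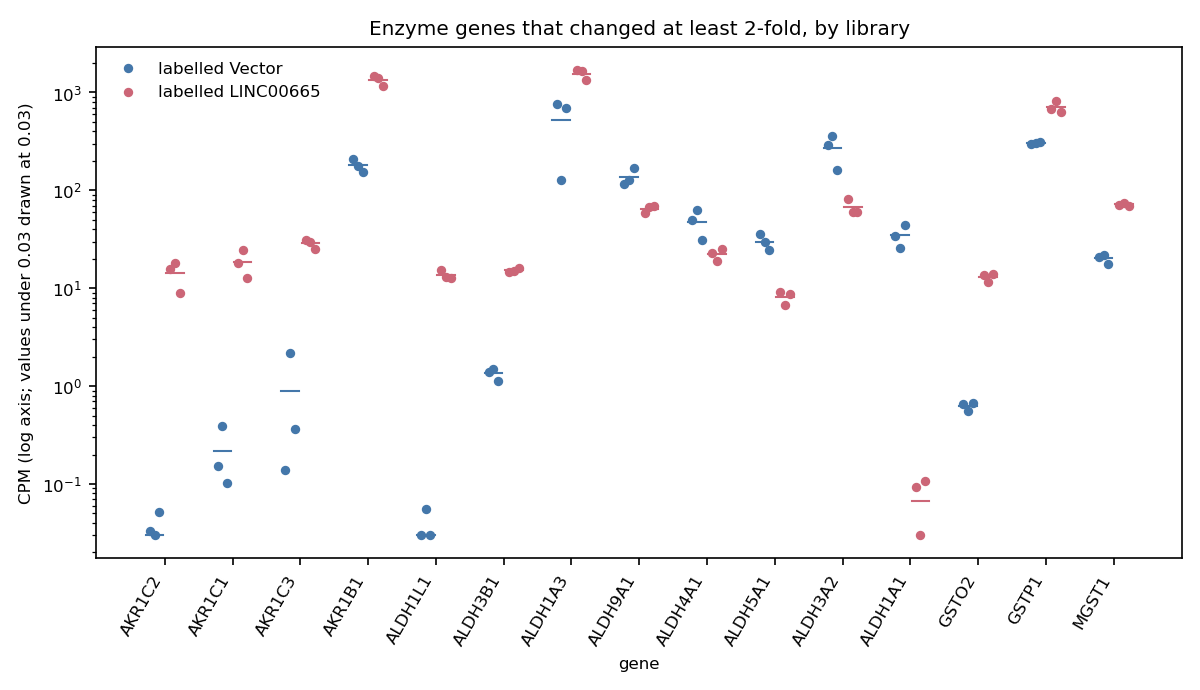
CPM in each library (y axis, log scale, values under 0.03 drawn at 0.03) for the 15 genes past the threshold with an absolute log2FC of at least 1 and a mean of at least 10 CPM under 1 label (x axis). Points are libraries and lines are label means. The 10 genes that rose and the 5 that fell did not overlap between labels, which their selection favours. Of all tested genes, 70.2% did not overlap. The low point of ALDH1A3 is Vector 2 at 127 CPM.

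Compared per gene length, each family was led by 1 enzyme under the LINC00665 label. Summed over the family, ALDH FPKM was 611, 450 and 544 under the Vector label and 703, 646 and 591 under the LINC00665 label, ranges that overlapped. ALDH1A3 made up 38.8, 8.99 and 40.0% of that sum under the Vector label and 76.1, 78.3 and 73.2% under the other. ALDH3A2 went from a mean of 30.0% to 4.64% and ALDH1A1 from 3.28% to 0.00472%. ALDH1A3 thus led the family in all libraries but Vector 2, where ALDH3A2 led.

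For the aldo-keto reductases the total itself differed, at 304, 296 and 253 FPKM against 1158, 1092 and 967 FPKM. AKR1B1 supplied a mean of 48.9% of it under the Vector label and 86.0% under the LINC00665 label, and AKR1A1 39.7% and 7.48%. AKR1C1, AKR1C2 and AKR1C3, whose fold changes were much larger, reached only 1.26, 1.06 and 2.14% of the family sum under the LINC00665 label. Summed GST and MGST FPKM was 800.2, 819.97 and 808 against 1247, 1444 and 1209, with GSTP1 at a mean of 53.9% and 69.6%, GSTO1 at 15.6% and 8.43% and MGST1 at 2.98% and 5.89%. These sums and shares are descriptions with no test.

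**Figure D3:**
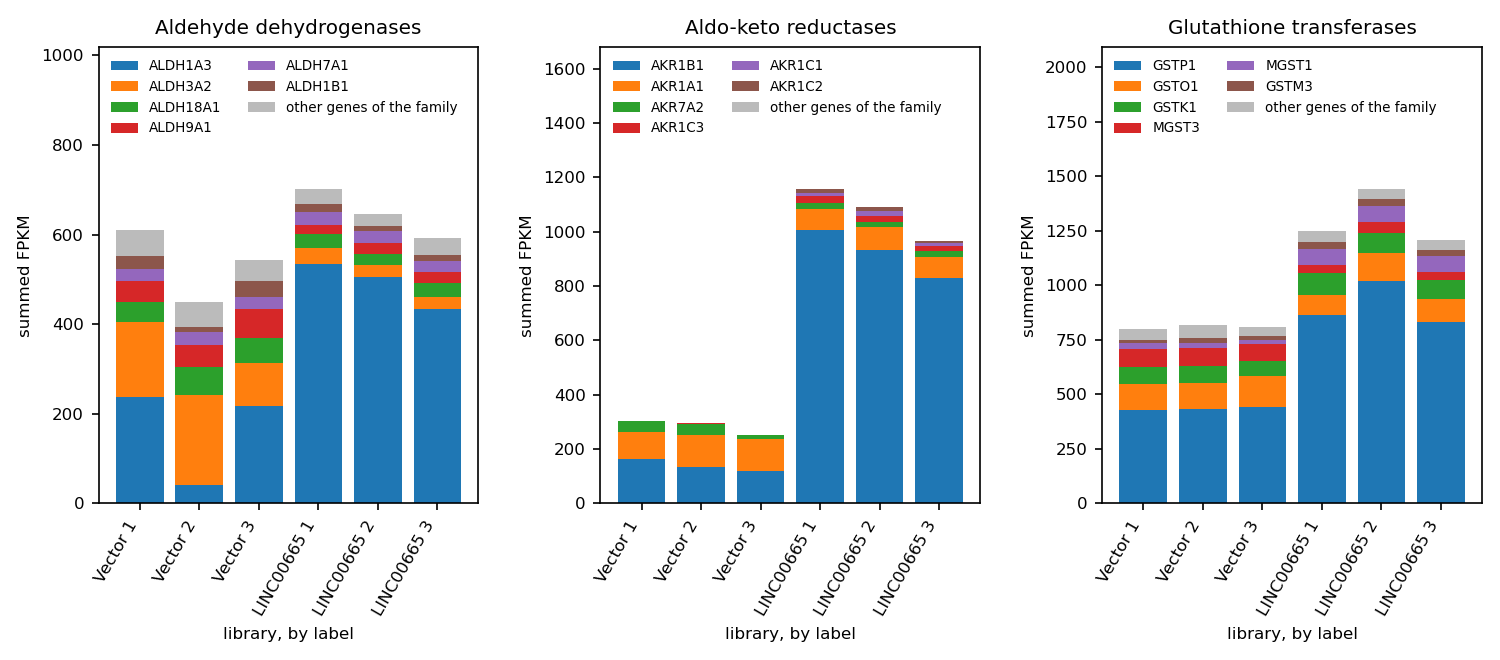
Summed FPKM of each family (y axis) in each library (x axis), split into the 6 genes with the highest mean FPKM and all others. AKR1B1, GSTP1 and ALDH1A3 (blue, at the base of each bar) form most of each sum under the LINC00665 label, and the ALDH1A3 segment of Vector 2 is the smallest.

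Genes of related pathways were counted in 6 further lists. Some supply substrates to these enzymes or take up their products, and others are receptors, transcription factors and their known targets. The counts are set beside all tested genes, of which 34.2% were higher and 29.3% lower, and beside all genes at the count minimum under both labels, of which 26.9% were higher and 31.9% lower, with a median log2FC of -0.09. In the retinoid list, 13 of 20 tested genes rose (65%) and 2 fell (10%). The direction of 8 of the 20 was fixed by reaching the minimum under 1 label only, and of the other 12, 6 rose and 1 fell, with a median log2FC of 0.76. CRABP2, which carries retinoic acid to its receptors, rose from 1.57 ± 0.885 to 166 ± 7.99 CPM (log2FC 6.73, adjusted p = 2.5e-06). STRA6, a retinol importer, had 2 counts in all under the Vector label and 13.8 ± 2.74 CPM under the other, a ratio of 405 (95% counting interval 112 to 3352). CYP26B1, which breaks retinoic acid down, fell from 22.1 ± 8.81 to 9.02 ± 3.66 CPM (log2FC -1.29, adjusted p = 0.014). CRABP2, STRA6 and ALDH1A3 were thus higher, and ALDH1A1 and CYP26B1 lower, in the same libraries.

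In the list of cytochrome P450 genes and genes of the aryl hydrocarbon receptor response, 10 of 14 tested genes rose (71.4%) and 1 fell (7.14%). Of these, CYP1A1, CYP24A1 and CYP27A1 reached the count minimum under the LINC00665 label only. Of the 11 at the minimum under both labels, 7 rose and 1 fell, with a median log2FC of 1.91. The 10 that rose include CYP24A1, CYP27A1 and CYP27B1, which are known as vitamin D and sterol hydroxylases. The receptor gene AHR rose from 10.2 ± 1.03 to 237 ± 26.7 CPM (log2FC 4.53, adjusted p = 3.7e-07). Its best-known target CYP1A1 rose from 0.482 ± 0.0962 to 339 ± 36.5 CPM (log2FC 9.45, adjusted p = 1e-07), and CYP27A1, a sterol hydroxylase, had 2 counts in all against 13.9 ± 0.815 CPM, a ratio of 408 (95% counting interval 113 to 3373). ARNT, the receptor's partner, was at 83.0 ± 8.65 and 59.3 ± 6.03 CPM (log2FC -0.48, adjusted p = 0.021), a call lost without Vector 1 (adjusted p = 0.063), LINC00665 1 (0.058) or LINC00665 2 (0.065).

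In the NRF2 list 9 of 26 tested genes were higher (34.6%), 7 lower (26.9%) and 10 did not pass, shares near those of all tested genes. NFE2L2, the gene of NRF2 itself, rose from 56.2 ± 9.86 to 99.1 ± 6.49 CPM (log2FC 0.82, adjusted p = 0.0028), and its inhibitor KEAP1 fell from 80.7 ± 14.3 to 43.6 ± 2.93 CPM (-0.89, adjusted p = 0.0018). The repressor BACH1 rose from 25.3 ± 4.52 to 241 ± 13.6 CPM, the partner MAFK from 24.1 ± 6.88 to 115 ± 5.43 CPM and the transporter ABCB6 from 1.30 ± 0.662 to 15.6 ± 1.90 CPM. NQO1, a quinone reductase often used to read NRF2 activity, fell from 786 ± 181 to 177 ± 33.9 CPM (log2FC -2.15, adjusted p = 6.1e-05). The peroxiredoxin PRDX1 fell from 827 ± 45.5 to 380 ± 25.9 CPM and malic enzyme, ME1, from 44.4 ± 9.68 to 12.3 ± 2.03 CPM. NQO1 was lower and AKR1C1, AKR1C2 and AKR1C3 were higher, and all are known NRF2 targets. The direction of the AKR1C genes was fixed by the count minimum, and NRF2 activity was not tested. The number lower was 11 without Vector 3.

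Of 23 tested genes of glutathione synthesis and recycling, 9 rose (39.1%) and 7 fell (30.4%), shares near those of all tested genes. Of the 19 at the count minimum under both labels, 6 rose and 6 fell, with a median log2FC of -0.21. For the rest the minimum fixed the direction. SLC3A2, the heavy chain of the cystine transporter, rose from 270.1 ± 26.7 to 879.9 ± 29.3 CPM, CTH, which makes cysteine, from 8.97 ± 2.34 to 36.2 ± 1.88 CPM and the glutaredoxin GLRX from 5.01 ± 2.15 to 34.5 ± 4.79 CPM. LANCL1, a glutathione-binding protein, fell from 109.8 ± 25.9 to 26.4 ± 2.52 CPM, OPLAH, which recovers glutamate from oxoproline, from 12.7 ± 2.34 to 0.117 ± 0.0192 CPM and GGT7 from 22.8 ± 4.07 to 7.56 ± 0.639 CPM. On FPKM the number lower was 11. Downstream, 6 of 10 tested genes of conjugate export and mercapturate formation fell (60%) and 2 rose (20%), beside 29.3% and 34.2% of all tested genes. The exporters ABCC4 and ABCC5 fell from 107 ± 30.0 to 18.4 ± 3.10 CPM and from 86.9 ± 19.3 to 36.5 ± 2.71 CPM, and the peptidase LAP3 from 69.3 ± 9.09 to 27.5 ± 1.91 CPM. All 6 that fell were among the 8 genes at the count minimum under both labels, none of which rose, with a median log2FC of -0.85. The exporters ABCC1 (158 ± 27.7 and 134 ± 9.23 CPM, adjusted p = 0.24) and ABCC2 (adjusted p = 0.13) did not pass.

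Of 22 other tested reductases and dehydrogenases of carbonyls and alcohols, 9 rose (40.9%) and 7 fell (31.8%), near the shares of all tested genes. Of the 18 at the count minimum under both labels, 5 rose and 7 fell, with a median log2FC of -0.33. The rest reached the minimum under 1 label only, which fixed their direction. SORD, which turns the sorbitol made by AKR1B1 into fructose, rose from 64.4 ± 8.84 to 104 ± 9.05 CPM (log2FC 0.69, adjusted p = 0.0049), and the carbonyl reductase CBR3 from 12.4 ± 0.597 to 20.9 ± 2.85 CPM. HSD17B2, which inactivates androgens and oestrogens, had 0 counts under the Vector label and stood at 41.5 ± 5.79 CPM, at least 808-fold higher. HSD17B10 fell from 127 ± 19.0 to 55.7 ± 11.4 CPM, the steroid reductase SRD5A1 from 57.0 ± 9.81 to 32.0 ± 2.72 CPM and the peroxisomal HSD17B4 from 137 ± 24.7 to 82.6 ± 4.56 CPM. The number lower was 4 without LINC00665 1.

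**Figure D4:**
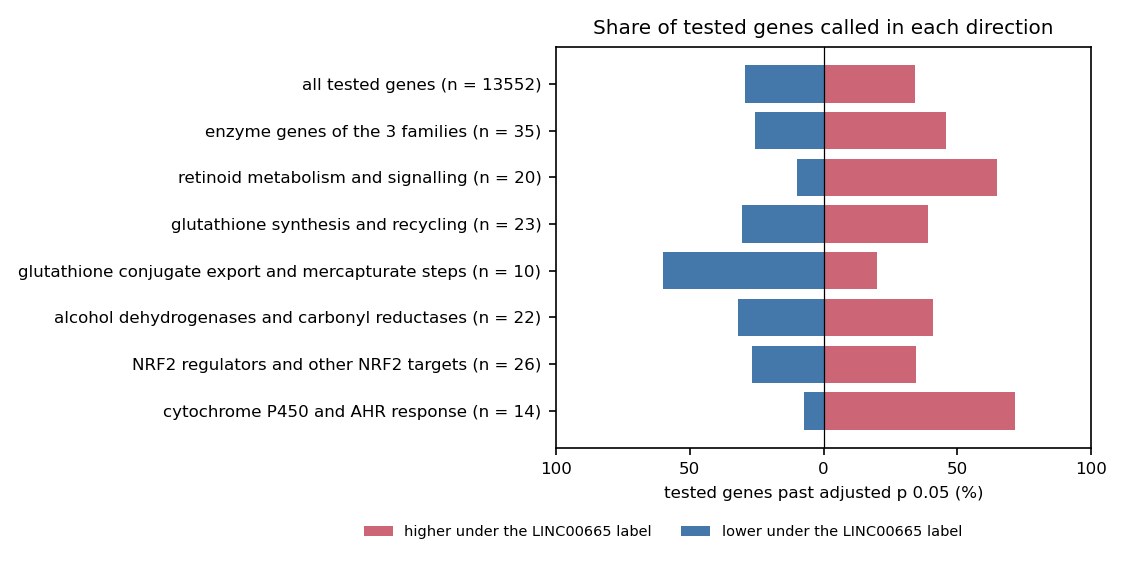
Share of tested genes past an adjusted p of 0.05 (x axis, percent, higher to the right and lower to the left) for all tested genes, the enzyme genes and the 6 related lists (y axis, with the number tested). The enzyme genes stood at 45.7% higher and 25.7% lower beside 34.2% and 29.3% of all tested genes. These shares include genes whose direction was fixed by the count minimum. Of the 25 enzyme genes that reached it under both labels, 8 were higher and 7 lower. The conjugate export list had the largest share lower, at 60%.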

How the data were processed

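The authors deposited 1 table with an expected count and an FPKM value in each library, per the file headers. The deposited expected counts are not normalised, and FPKM divides by gene length and depth, per the file headers. HISAT2 2.0.4 and hg38 are named in the submitters' processing notes with no role. No source used here names the counting tool, the annotation or whether strand was used. The labels name 3 independent experiments, without saying whether these are separate cultures.

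Counts were rounded, filtered (filterByExpr, minimum count 10), scaled by TMM (factors 0.918 to 1.07) and tested with edgeR 4.0.16 (quasi-likelihood, no covariate) in R 4.3.3, with Benjamini-Hochberg adjustment over all 13552 genes tested and a threshold of 0.05. The SE came from the F statistic. Values are mean ± SD over 3 libraries. A group at 0 counts was set at 3 counts over the group, and for 1 to 3 counts the ratio has an exact 95% binomial confidence interval, which like the bounds covers counting error only. The members and lists were chosen with earlier results of these data known. Every gene found by the symbol rule was accounted for. Each library's value is given for those past the threshold with an absolute log2FC of 1 or more and a mean of at least 10 CPM under 1 label. Of each list, up to 3 genes per direction with the smallest p and at least 10 CPM are named, with NFE2L2 and KEAP1, and 1 gene this names is not reported here. Coordinates came from GENCODE v29 (all 54 genes matched) and promoters from RefSeq (GRCh38.p14). Alternatives were limma 3.58.1, DESeq2 1.42.0, other scalings, filters and thresholds, the replicate block and leaving out each library. On simulated data with these 13552 genes, 100 were given a 2-fold change and 100 a 4-fold change. Of these, 36% and 89% were recovered, and 4.58% of calls were false. In the data 63.5% of the tested genes were called, so these rates may not carry over. Within a label, libraries differed beyond sampling noise (chi-square per degree of freedom 10.2 to 121). No fit without the 3 libraries that did not match their label was possible, since no comparison would be left.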

Additional observations from a re-analysis of the deposited data

How the results depend on the processing

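Of the 35 tested enzyme genes, 22 kept their direction and their side of the threshold in all 17 alternatives. The genes called numbered 14 to 18 higher and 8 to 12 lower when 1 library was left out, 21 and 10 with DESeq2, and 14 and 11 with total-count scaling. That scaling moves the median log2 fold change of all tested genes from 0.03 to -0.13. With DESeq2 all 35 genes kept their direction and their side of the threshold. Its further calls were thus of enzyme genes too low to be tested in the main fit. Over all genes, 4142 to 5033 were higher and 3275 to 4225 lower without 1 library. Counted only among genes at the count minimum under both labels, an alternative added after the data were seen in which p was adjusted over those genes alone, 8 enzyme genes and 3034 of all genes were higher, beside 3067 of the same genes with p adjusted over all genes tested. In that setting the number higher was 6 in the retinoid list (1 lower), 5 in the carbonyl reductase list and 0 in the conjugate export list. With an absolute log2FC of 1 or more, 2156 of all genes were lower, and the lists had 4 higher and 2 lower (carbonyl reductases), 0 lower (P450), 3 lower (export) and 4 lower (NRF2). At an adjusted p of 0.01 the numbers were 5 higher and 3 lower (carbonyl reductases), 0 lower (P450) and 1 lower (retinoid). On FPKM with either pseudocount, 3 genes of the P450 list and 11 of the glutathione synthesis list were lower, and with total-count scaling 2 of the P450 list. Without 1 library, 0 to 1 genes of the P450 list, 6 to 11 of the NRF2 list and 4 to 7 of the carbonyl reductase list were lower. The changes of threshold leave fewer genes past it by construction. Apart from the DESeq2 calls named above, the cause was not tested for the other alternatives.

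The directions of 3 genes that did not pass were unstable. ALDH7A1 and GSTZ1 were at -0.071 and -0.017 with total-count scaling, at -0.029 and -0.0072 on log2(FPKM + 1) and at -0.030 and -0.0074 on log2(FPKM + 0.1). GSTO1 was at 0.04 without Vector 3 and at 0.072 without LINC00665 1, within a range of -0.21 to 0.072 without 1 library.

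With the replicate number as a block, 16 enzyme genes were higher and 8 lower, and 4419 and 3505 of all genes. ALDH1L2 no longer passed (adjusted p = 0.067), and the P450 list had 0 lower. The numbers did not pair the libraries, with correlations of the deviations from the label means of 0.245, -0.171 and -0.221, and 2 of 6 libraries correlated best with their own number. The fitted log2 fold changes of genes with 1 to 3 counts under the Vector label moved most without 1 library, for ALDH3A1 from 6.12 to 8.75 and CYP27A1 from 8.43 to 11.06 without Vector 1, and for ALDH1L1 from 9.19 to 11.10 and STRA6 from 8.42 to 11.11 without Vector 2. With 17289788 to 22725687 counts per library, 19 of the 54 enzyme genes were too low to test.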
